A study of Rattus norvegicus with 6 samples.

Results

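The genes of the translation initiation factors (eIFs) were taken from the count table of a rat sensory neuron experiment as every protein-coding gene whose name begins with Eif and a digit, which gave 52 of the 25689 genes listed. All 52 passed edgeR's filter on low counts, as did 14919 genes in all, and the lowest count of any of them in any sample was 47. Neurons had been isolated from the L1-L2 dorsal root ganglia (DRGs), which receive sensory fibers from the fat around the kidney. The rats were Spontaneously Hypertensive Rats (SHRs), an inbred model of high blood pressure, labelled wild type and 6 to 8 weeks old, whereas the study's methods give an age of 12 weeks at purchase. The groups were defined by perirenal adipose tissue ablation (PRATA, n = 3) and by a sham operation (sham, n = 3). Ganglia were taken 4 weeks after surgery, digested with collagenase and trypsin, and the cells were cultured for some hours before RNA extraction. The neurons were collected by their slower adhesion to the dish than that of glial cells, an enrichment and not a sort. The comparison asks which initiation factor transcripts differed in these neurons after the fat was removed.

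Initiation brings the ribosome to the start codon of an mRNA. The factor eIF2 carries the initiator tRNA to the small ribosomal subunit together with GTP, and eIF2B recharges eIF2 with GTP after each round. Stress kinases phosphorylate eIF2 and so block eIF2B. The eIF4 group binds the cap of the mRNA and unwinds its leader, eIF3 holds the small subunit and the mRNA together, eIF1 and eIF1A keep scanning accurate, and eIF5 and eIF5B complete start site selection and the joining of the subunits. In sensory neurons, local translation in the axon and the phosphorylation of eIF2 and of the eIF4E-binding proteins are known to affect how excitable the cell is.

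Promoter sequence was read from RefSeq for the build GRCr8, as the 250 bases before the start of each gene, and 48 of the 52 genes had such a window. The letters CCGGAAG, which the other strand reads as CTTCCGG, are the core bound by ETS family activators at many housekeeping promoters. They stood in 19 of the 48 windows (39.6%), against 14.5% of the windows of all tested genes with one and 7.27% of all 33469 windows. Among genes lower after PRATA by the test given below, 8 of 20 windows held these letters, and so did 11 of 28 windows of the other genes. Windows with CACGTG, an E-box that reads alike on both strands, numbered 8 (16.7%), against 8.33% of tested genes. The interferon response element, read as GAAA repeated after a gap of 2 bases of any kind (TTTC on the other strand), was in 3 windows (6.25%), those of Eif2ak2, Eif3k and Eif6, against 2.70% of tested genes, and TGATGCAA (TTGCATCA), the element read by ATF4, was in that of Eif2s2 alone, against 0.557% of tested genes. Both strands were searched, none of these letters contain another set, the motifs were chosen after the fold changes had been seen, and a match describes the letters and no binding. The 4 windows shown belong to the kinase gene that was higher after PRATA (Eif2ak2, plus strand, chr6:21940904-21941153), to an eIF3 gene that was lower (Eif3d, minus strand, chr7:111432741-111432990), to an eIF2B gene with the same ETS letters that did not pass the test (Eif2b2, plus strand, chr6:110597729-110597978), and to an eIF3 gene with the E-box (Eif3b, minus strand, chr12:19334769-19335018). Each is written from 5′ to 3′ toward the gene, with every match to any of these 4 motifs in capitals. The window of Eif2ak2 holds a match to the ETS letters upstream of the interferon response element, and each of the other 3 windows holds 1 match.
Eif2ak2: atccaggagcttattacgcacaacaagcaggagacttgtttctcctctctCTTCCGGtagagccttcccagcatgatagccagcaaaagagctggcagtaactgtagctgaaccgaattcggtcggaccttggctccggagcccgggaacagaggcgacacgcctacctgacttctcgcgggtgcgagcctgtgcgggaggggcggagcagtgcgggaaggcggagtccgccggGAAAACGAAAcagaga
Eif3d: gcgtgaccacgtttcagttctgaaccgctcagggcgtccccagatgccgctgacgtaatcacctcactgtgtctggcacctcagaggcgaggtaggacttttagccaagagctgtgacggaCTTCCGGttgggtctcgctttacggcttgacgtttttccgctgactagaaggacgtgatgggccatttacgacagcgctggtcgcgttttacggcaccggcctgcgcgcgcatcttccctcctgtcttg
Eif2b2: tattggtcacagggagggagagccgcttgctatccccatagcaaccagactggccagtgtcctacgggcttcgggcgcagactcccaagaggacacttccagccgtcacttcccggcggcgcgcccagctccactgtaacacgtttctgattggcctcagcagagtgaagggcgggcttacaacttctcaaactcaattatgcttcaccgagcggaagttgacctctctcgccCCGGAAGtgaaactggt
Eif3b: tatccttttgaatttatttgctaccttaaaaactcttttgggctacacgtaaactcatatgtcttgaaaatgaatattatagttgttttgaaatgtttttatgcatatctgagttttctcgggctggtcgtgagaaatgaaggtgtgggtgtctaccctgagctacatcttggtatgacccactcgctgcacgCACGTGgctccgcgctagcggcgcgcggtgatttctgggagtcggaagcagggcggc

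The table holds whole-number read counts per gene, with totals between 5892967 (sham replicate 2) and 15226952 (sham replicate 1). PRATA replicate 3 and sham replicate 1 stood apart from the other 4 samples in the copy of the 7SL RNA gene that took the reads, with 92.0% and 94.1% of the family's counts on Rn7sl1 against 45.3% to 47.4%. Markers of sensory neurons were present in every sample, and their summed level was higher after PRATA (6154 to 7338 in CPM, counts relative to the TMM-scaled total of the sample, for the 8 genes) than after the sham operation (3485 to 5179). Of these 8 markers 3 were higher at an unadjusted p under 0.05 and 0 lower, beside 8.19% and 10.1% of all genes tested. The higher ones were Pou4f1, Tubb3 and Prph, at log2 fold changes of 1.02, 0.81 and 0.75. All 8 markers had a positive log2 fold change (median 0.45). The summed levels overlapped for satellite glia (3175 to 6081 against 4225 to 8284 CPM for 6 genes), Schwann cells (789 to 1381 against 764 to 916 CPM for 6 genes), fibroblasts (323 to 1975 against 906 to 1818 CPM for 5 genes), macrophages (15.0 to 57.3 against 18.2 to 42.4 CPM for 6 genes) and endothelial cells (53.7 to 105 against 23.9 to 148 CPM for 5 genes). No marker that was read was at 0 in a sample. The listed markers Col1a2 (fibroblasts) and Pecam1 (endothelial cells) were not found by name among the genes counted. All 6 satellite glia markers had a negative log2 fold change (median -0.52), with 0 at an unadjusted p under 0.05. Among the sham samples their sum was lowest in replicate 2 (4225 CPM) and highest in replicate 3 (8284 CPM). The sum of the initiation factor genes, given below, had these same extremes among the sham samples. Among the PRATA samples the orders differed. The glial sum was highest in PRATA replicate 2 (6081 CPM), above sham replicate 2. Apoe alone gave 5229 CPM of the sum in PRATA replicate 2, so the order of the glial sums is mainly that of Apoe. The initiation factor sum there was 7099 CPM, below PRATA replicate 1 (7170 CPM) and sham replicate 2 (7876 CPM). Of the 6 Schwann cell markers 5 had a positive log2 fold change (median 0.75), among them the myelin gene Prx (1.39), and 1 a negative one, the glial transcription factor gene Sox10 (-1.63), and these named genes were those at an unadjusted p under 0.05. The part of these markers in the values of the initiation factor genes was not tested, and in such bulk RNA fewer cells of a type and less RNA per cell cannot be told apart.

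Initiation factor transcripts tended to lie lower after PRATA, with genes called lower in eIF1, eIF2, eIF2B, eIF3, eIF5 and the eIF4E-binding proteins. In the eIF4 group 1 of 12 genes was called lower (8.33%), a share below the 10.1% of all genes tested. Tested by the quasi-likelihood method of edgeR at an unadjusted p under 0.05, 22 of the 52 genes (42.3%) were lower, against 10.1% of all genes tested, and 1 was higher, the kinase gene Eif2ak2, against 8.19% of all genes. The median log2 fold change was -0.34 over the 52 genes and 0.02 over all genes tested, and 40 of the 52 (76.9%) had a negative value, against 48.0% of all genes. No initiation factor gene had a Benjamini-Hochberg adjusted p under 0.05 in edgeR, where the smallest was 0.156, nor did any other gene (0% of those tested). In 26 of the 52 genes the highest PRATA sample was under the lowest sham sample, against 11.2% of all genes, and for 1 gene, Eif2d, every PRATA sample lay above, against 11.6%. Of the 22 lower genes 20 had groups that did not overlap, the exceptions being Eif1 and Eif3a. Genes called on these same values tend to have groups apart, so this adds no support to the calls. The labels give no animal for each library, so the p-values measure the spread between these samples. In RefSeq 26 of the 52 genes have pseudogene copies, 74 in all, and 12 overlap another protein-coding gene, so that reads of these genes could have been divided or shared by the counting.

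**Figure D1:**
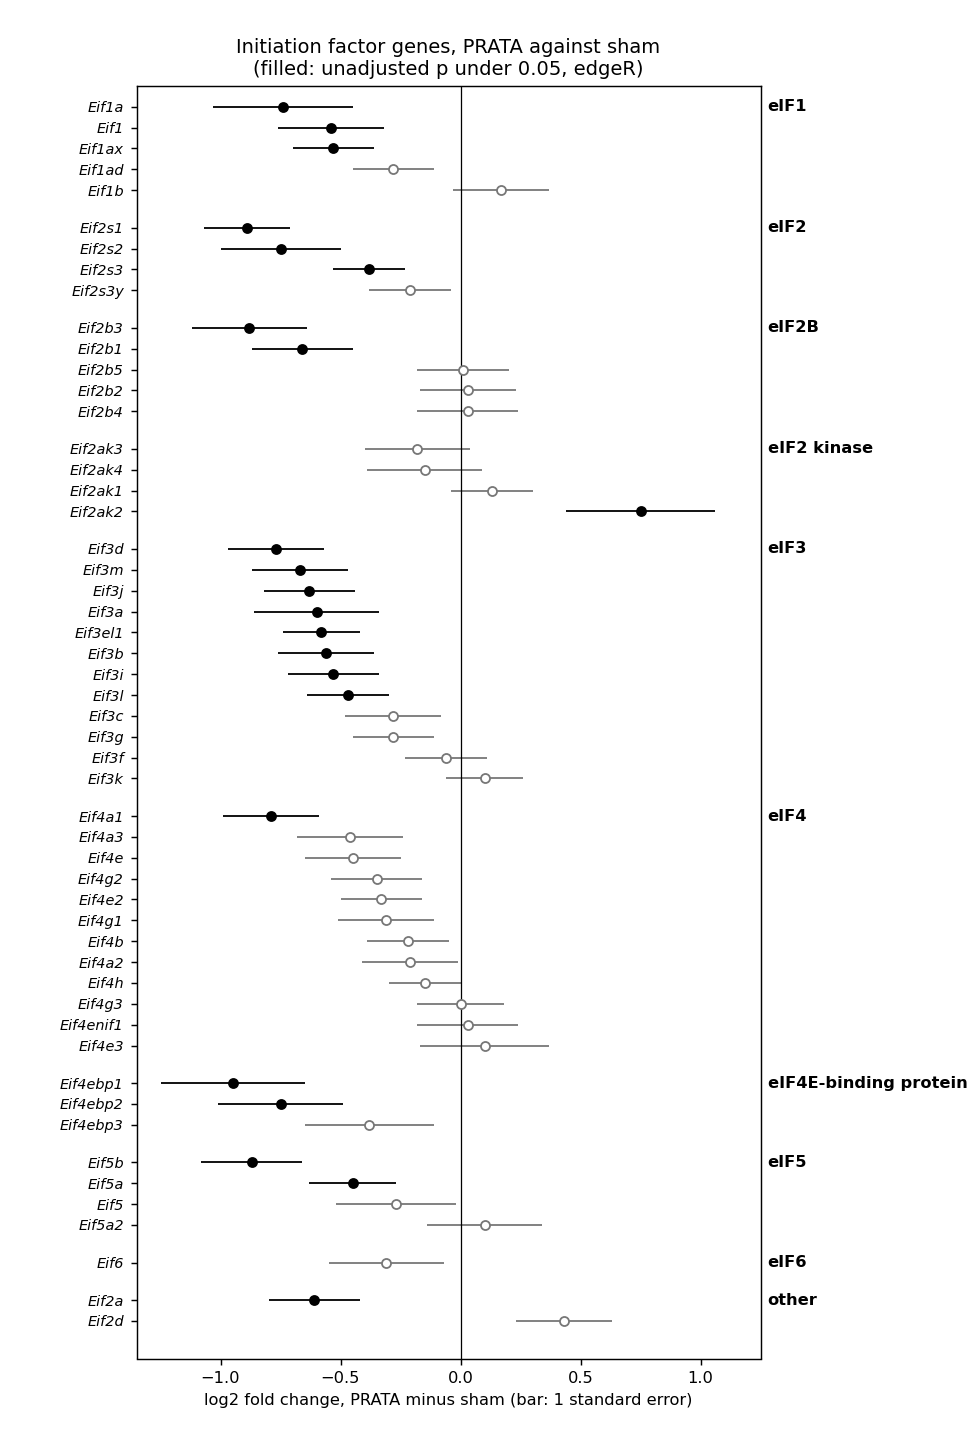
Log2 fold change of each of the 52 initiation factor genes (PRATA minus sham, n = 3 in each group), ordered by complex, with a bar of 1 standard error on each side. Filled points passed an unadjusted p under 0.05 in edgeR; 22 of the 23 filled points lie left of 0 and the other, Eif2ak2, lies at 0.75.

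Added over the 52 genes, CPM came to 7170, 7099 and 6716 in the PRATA samples (replicates 1 to 3) and to 9282, 7876 and 10233 in the sham samples. These sums did not overlap, and the sham samples were spread more widely than the PRATA samples. Sham replicate 2 was the lowest sham sample for 33 of the 52 genes and sham replicate 3 the highest for 32. The summed levels of the groups stood apart for eIF1 (507 to 515 CPM after PRATA, 562 to 800 after sham), eIF2 (260 to 303 against 362 to 487), eIF3 (1651 to 1802 against 1979 to 2929), eIF4 (2847 to 3069 against 3462 to 4039) and eIF5 (799 to 865 against 900 to 1213). They overlapped for eIF2B (143 to 174 against 162 to 204 CPM), the eIF2 kinases (245 to 294 against 206 to 281) and the eIF4E-binding proteins (129 to 165 against 126 to 244).

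**Figure D2:**
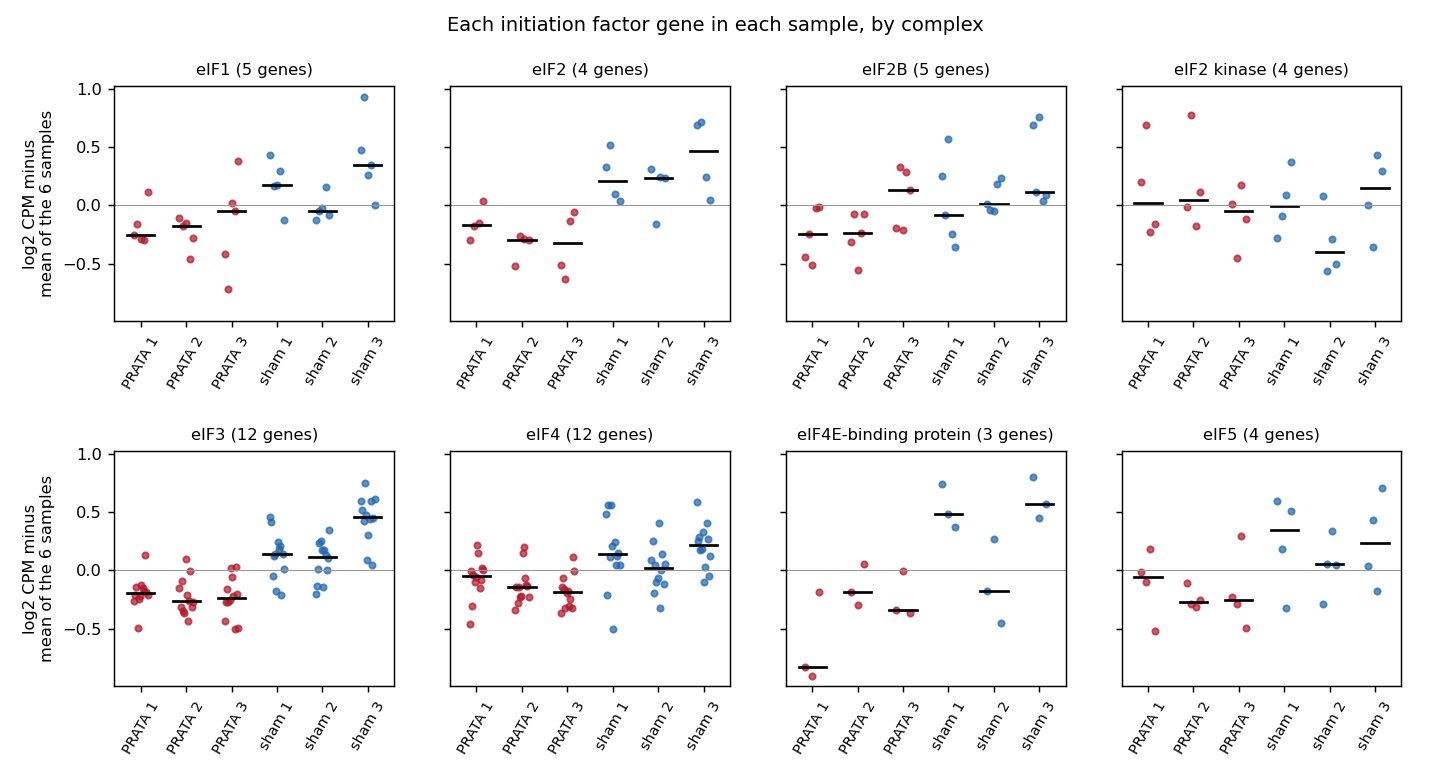
Level of each initiation factor gene in each sample, as log2 CPM minus the gene's mean over the 6 samples, in 8 groups of factors. Each point is 1 gene (PRATA red, sham blue) and the black line is the median; in the panel of the 12 eIF3 genes the 3 PRATA medians lie below 0 and the 3 sham medians above it.

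Of the 4 genes of eIF2 itself, 3 were lower at an unadjusted p under 0.05 (75.0%, beside 10.1% of all genes), each with groups that did not overlap, though narrowly for Eif2s2. Eif2s1 (ENSRNOG00000009432) encodes the alpha subunit, the one that stress kinases phosphorylate. Its level was 46.2, 39.7 and 39.8 CPM after PRATA and 71.2, 70.4 and 91.8 CPM after the sham operation. The groups did not overlap, sham replicate 3 was the highest sample, and the log2 fold change of -0.89 (standard error 0.18, edgeR adjusted p = 0.156) had the smallest p of the 52 genes. Eif2s2, the beta subunit gene, was at 130, 123 and 95.0 CPM after PRATA and at 211, 132 and 242 CPM after sham. Sham replicate 2 was nearly level with PRATA replicate 1, and the log2 fold change was -0.75 (standard error 0.25, edgeR adjusted p = 0.201). Eif2s3, whose product is the gamma subunit that binds GTP and the initiator tRNA, was at 83.1, 75.3 and 83.8 CPM after PRATA and 98.3, 109 and 109 CPM after sham, a log2 fold change of -0.38 (standard error 0.15, edgeR adjusted p = 0.237). Eif2s3y, its Y-linked copy, was read in all 6 samples at 35.0 to 50.6 CPM, with overlapping groups and a log2 fold change of -0.21 (standard error 0.17).

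Of the 5 subunit genes of eIF2B, 2 (40.0%, beside 10.1% of all genes) were lower after PRATA and the other 3 lay close to 0. Eif2b3, for the gamma subunit of the catalytic part, was at 17.0, 16.5 and 21.0 CPM after PRATA and 36.0, 23.4 and 41.0 CPM after sham. The groups did not overlap, and the log2 fold change was -0.88 (standard error 0.24, edgeR adjusted p = 0.168). Eif2b1, for the alpha subunit of the regulatory part, was at 20.5, 22.5 and 24.4 CPM against 33.2, 28.1 and 44.9 CPM. It too had groups that stood apart, with a log2 fold change of -0.66 (standard error 0.21, edgeR adjusted p = 0.191), and in RefSeq it overlaps Gtf2h3. The genes of the beta, delta and epsilon subunits, Eif2b2, Eif2b4 and Eif2b5, overlapped between the groups, with log2 fold changes of 0.03, 0.03 and 0.01 (standard errors 0.20, 0.21 and 0.19). Eif2b5, the subunit that exchanges the nucleotide, was at 67.0, 64.4 and 74.3 CPM after PRATA and 52.9, 79.6 and 72.1 CPM after sham. The differences between these subunits were not tested.

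**Figure D3:**
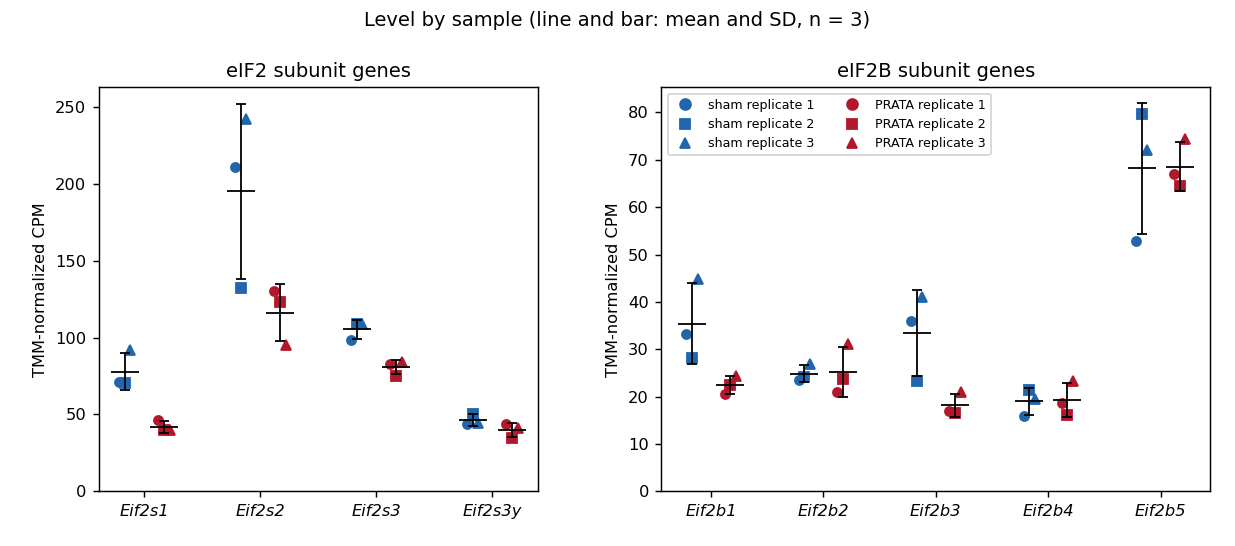
TMM-normalized CPM of the 4 eIF2 and 5 eIF2B subunit genes in each sample, with the mean (long line) and SD (bar) of each group of 3. The PRATA points lie below all sham points for Eif2s1, Eif2s2, Eif2s3, Eif2b1 and Eif2b3, and the groups overlap for the other 4 genes.

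Of the 4 eIF2 kinase genes, Eif2ak2 alone passed the test. It encodes PKR, which responds to double-stranded RNA and is itself an interferon-inducible gene. Its level was 105, 111 and 47.6 CPM after PRATA and 60.9, 44.0 and 50.8 CPM after sham. PRATA replicates 1 and 2 were above every sham sample while PRATA replicate 3 lay within the sham range, so the groups overlapped, and the log2 fold change was 0.75 (standard error 0.31, edgeR adjusted p = 0.258). It was 0.60 without PRATA replicate 1 and 0.55 without PRATA replicate 2, where the unadjusted p was no longer under 0.05, and 1.05 without PRATA replicate 3, where it was; the call was also lost without sham replicate 1 (0.87), 2 (0.65) or 3 (0.75). Eif2ak1, the heme-regulated kinase gene, had a log2 fold change of 0.13 (standard error 0.17). Eif2ak3, which encodes the endoplasmic reticulum kinase PERK, had -0.18 (0.22), and Eif2ak4, for GCN2, which senses uncharged tRNA, had -0.15 (0.24). All these kinases overlapped between the groups.

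The eIF3 complex held the most lower genes. Of the 12 listed here, 8 (66.7%, beside 10.1% of all genes) were lower at an unadjusted p under 0.05 and 0 higher, with a median log2 fold change of -0.55. No gene named Eif3h was among the 52 genes, so not every subunit of this complex was covered. Eif3d (ENSRNOG00000005804), whose product can bind the cap of some mRNAs, was at 79.8, 88.5 and 93.2 CPM after PRATA and 123, 133 and 190 CPM after sham. The highest PRATA sample lay well below the lowest sham sample, and the log2 fold change of -0.77 (standard error 0.20, edgeR adjusted p = 0.168) was the largest and had the smallest p of this complex. For the scaffold gene Eif3a the level was 707, 764 and 629 CPM after PRATA and 1166, 737 and 1287 CPM after sham. Sham replicate 2 lay among the PRATA samples, and the log2 fold change was -0.60 (standard error 0.26, edgeR adjusted p = 0.266). Eif3b was at 151, 141 and 145 CPM against 233, 160 and 250 CPM, a log2 fold change of -0.56 (standard error 0.20), with the groups apart.
Eif3m (-0.67), Eif3j (-0.63), Eif3el1 (-0.58), Eif3i (-0.53) and Eif3l (-0.47) were lower in log2 fold change as well, each with groups that did not overlap and edgeR adjusted p-values between 0.169 and 0.216. The product of Eif3j binds the complex loosely. Eif3el1 was at 51.4, 47.2 and 50.9 CPM after PRATA and 67.0, 72.4 and 84.6 CPM after sham. RefSeq gives Eif3el1 also as an older name of Eif3e, so which of these copies its reads came from is uncertain. The 4 genes of this complex that did not pass the test were Eif3c (-0.28, standard error 0.20), Eif3g (-0.28, 0.17), Eif3f (-0.06, 0.17) and Eif3k (0.10, 0.16). Of these, Eif3c had groups that did not overlap, at 347 to 364 CPM after PRATA and 376 to 519 CPM after sham. Eif3f, at 54.9 to 68.2 CPM against 56.5 to 72.1 CPM, covered almost the same range in both groups.

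Among the 12 genes of the eIF4 group, 1 passed the test, the helicase gene Eif4a1 (8.33%, near the 10.1% of all genes lower). Eif4a1 was at 279, 304 and 299 CPM after PRATA and 539, 410 and 576 CPM after sham. The groups stood apart by more than the whole PRATA range, and the log2 fold change was -0.79 (standard error 0.20, edgeR adjusted p = 0.168). RefSeq lists 8 pseudogene copies of Eif4a1 and an overlapping gene, Eif4a1l, so part of its reads may have been divided among copies by the counting. Its paralog Eif4a2, the form most abundant in adult brain, was at 342, 310 and 310 CPM after PRATA and 296, 408 and 407 CPM after sham, a log2 fold change of -0.21 (standard error 0.20) with overlapping groups. Eif4a3, a helicase of the exon junction complex and not of initiation, had -0.46 (standard error 0.22).
The gene of the cap-binding protein, Eif4e, was at 105, 96.1 and 90.0 CPM after PRATA and 166, 105 and 128 CPM after sham. Its log2 fold change was -0.45 (standard error 0.20), PRATA replicate 1 and sham replicate 2 were nearly level, and the unadjusted p did not come under 0.05. In 7 of the 15 alternative fits given below it did, in the same direction. Eif4e has 10 pseudogene copies in RefSeq. The related cap-binding genes Eif4e2 and Eif4e3 had -0.33 (standard error 0.17) and 0.10 (0.27). The scaffold genes Eif4g1, Eif4g2 and Eif4g3 had -0.31 (0.20), -0.35 (0.19) and 0.00 (0.18). The groups did not overlap for Eif4g2, at 791 to 931 CPM after PRATA and 1079 to 1191 CPM after sham. They were also apart for Eif4g1, at 517 to 585 CPM against 630 to 811 CPM. The helicase cofactor genes Eif4b and Eif4h (-0.22 and -0.15) did not pass the test either, although their groups did not overlap. Eif4enif1, the gene of an eIF4E transporter, had 0.03 (0.21).

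The genes of the eIF4E-binding proteins, repressors that compete with eIF4G for eIF4E until mTOR phosphorylates them, were lower for 2 of 3 (66.7%, beside 10.1% of all genes). Eif4ebp1 was at 8.26, 12.9 and 11.6 CPM after PRATA and 24.6, 13.0 and 25.6 CPM after sham. Sham replicate 2 was almost level with PRATA replicate 2, and the log2 fold change of -0.95 (standard error 0.30, edgeR adjusted p = 0.191) was the lowest of the 52 genes. Eif4ebp2, the form known best from neurons, was at 6.07, 9.24 and 11.3 CPM against 15.9, 13.7 and 15.5 CPM. Its groups did not overlap and its log2 fold change was -0.75 (standard error 0.26, edgeR adjusted p = 0.211). Eif4ebp3 was at 120, 142 and 106 CPM against 177, 99.6 and 203 CPM, with overlapping groups and a log2 fold change of -0.38 (standard error 0.27); in RefSeq it directly follows Ankhd1, whose reads were not analysed here.

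In the groups named eIF5 and eIF1, 2 of 4 and 3 of 5 genes were lower at an unadjusted p under 0.05, beside 10.1% of all genes. The eIF5 group was formed by name and includes Eif5a and Eif5a2, which are not factors of the start codon or of subunit joining. Eif5b (ENSRNOG00000023356), the GTPase that joins the ribosomal subunits, was at 130, 156 and 132 CPM after PRATA and 266, 193 and 305 CPM after sham. The groups stood apart, with a log2 fold change of -0.87 (standard error 0.21, edgeR adjusted p = 0.158). Eif5, which makes eIF2 hydrolyse its GTP, was at 386, 362 and 333 CPM against 589, 318 and 400 CPM, where sham replicate 2 was the lowest of all 6 samples, and its log2 fold change was -0.27 (standard error 0.25). It was -0.02 without sham replicate 1 and -0.45 without sham replicate 2. Eif5a, whose hypusine-bearing product helps the ribosome through difficult peptide bonds, was at 217, 191 and 191 CPM against 264, 241 and 314 CPM, a log2 fold change of -0.45 (standard error 0.18, edgeR adjusted p = 0.247). Its paralog Eif5a2 had 0.10 (standard error 0.24), with levels of 94.2 to 144 CPM after PRATA within the 93.8 to 148 CPM of sham.
The scanning factor genes Eif1, Eif1a and Eif1ax were lower in log2 fold change by -0.54, -0.74 and -0.53 (standard errors 0.22, 0.29 and 0.17, edgeR adjusted p = 0.249, 0.233 and 0.190). Eif1ax was at 72.3, 64.5 and 85.7 CPM after PRATA and 109, 98.6 and 113 CPM after sham. Eif1a was at 69.3, 68.7 and 47.1 CPM against 87.0, 74.9 and 148 CPM, so that much of its difference lay in PRATA replicate 3 and sham replicate 3. Eif1 overlapped, with sham replicate 2 (267 CPM) just under PRATA replicate 2 (269 CPM). Eif1b, a close paralog of Eif1, had 0.17 (standard error 0.20), and Eif1ad, whose product carries an eIF1A domain, had -0.28 (0.17).

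Outside these complexes, Eif2a and Eif2d encode alternative carriers of initiator tRNA, and their values lay on opposite sides of 0. Eif2a was at 19.2, 18.4 and 14.5 CPM after PRATA and 30.4, 24.2 and 24.7 CPM after sham, a log2 fold change of -0.61 (standard error 0.19, edgeR adjusted p = 0.188). Eif2d was at 14.6, 18.1 and 19.0 CPM against 11.5, 14.5 and 12.5 CPM, with the groups only just apart and a log2 fold change of 0.43 (standard error 0.20) that did not pass the test. Eif6, which keeps the large subunit from joining too early, had -0.31 (standard error 0.24) with overlapping groups. Its log2 fold change was -0.07 without sham replicate 1, -0.51 without sham replicate 2, where the unadjusted p came under 0.05, and -0.03 in the 4 samples that shared a 7SL copy.

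Paralogs were also compared as log2 ratios of their counts within a sample, which do not depend on scaling between samples. The ratio of Eif4a1 to Eif4a2 was -0.29, -0.03 and -0.05 in the PRATA samples and 0.87, 0.01 and 0.50 in the sham samples. Eif4a1 thus had fewer counts than Eif4a2 in every PRATA sample and more in every sham sample, by very little in sham replicate 2, although counts are not corrected for gene length and the order of levels between these genes is not known. The ratio of Eif2s3 to Eif2s3y, a pair added after the values had been seen, was apart as well, at 0.92 to 1.11 after PRATA and 1.11 to 1.29 after sham, touching at this rounding. The other 5 of the 7 pairs overlapped. The mean ratio after PRATA minus that after sham was -0.67 for Eif1 to Eif1b, -0.55 for Eif5a to Eif5a2, -0.56 for Eif4e to Eif4e3, -0.31 for Eif4g1 to Eif4g3 and -0.10 for Eif4ebp1 to Eif4ebp2. With 3 samples against 3 an exact permutation test could not give a p under 0.1, so these ratios were not tested.

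**Figure D4:**
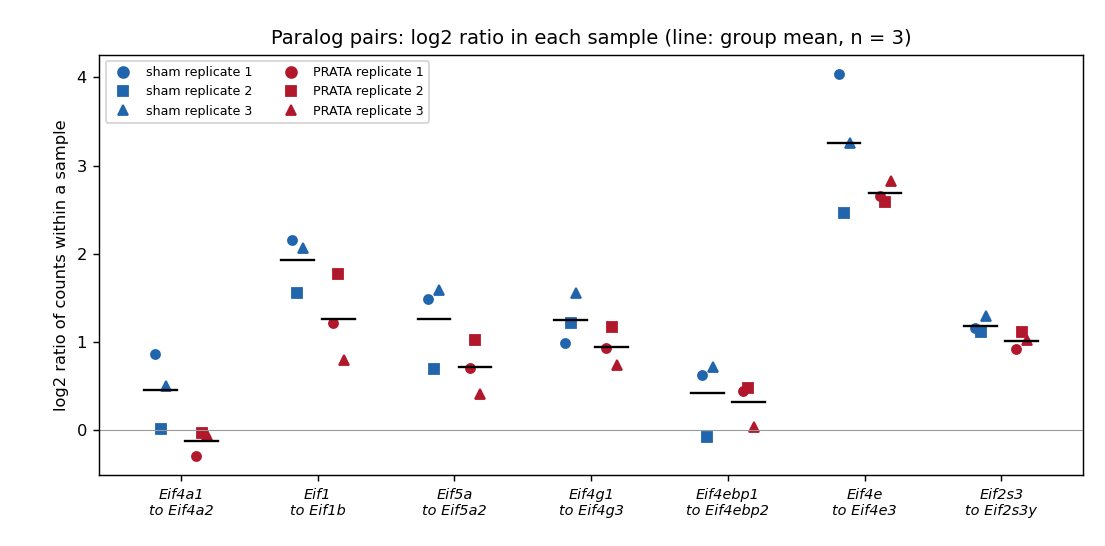
Log2 ratio of the counts of each of 7 paralog pairs within each sample, with the mean of each group of 3 as a line. For Eif4a1 to Eif4a2 the PRATA points (-0.29 to -0.03) lie below the sham points (0.01 to 0.87).

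Beside the initiation factors, 4 lists of genes of the same pathway were followed, to be read beside the 10.1% of all genes lower and 8.19% higher at the same threshold. Of 18 partners of initiation, 7 (38.9%) were lower and 0 higher at an unadjusted p under 0.05, with a median log2 fold change of -0.24. They included Pabpc4, a poly(A)-binding protein gene at -0.88 (standard error 0.22, edgeR adjusted p = 0.158), and Abce1, the ribosome recycling ATPase gene at -0.69 (standard error 0.17, edgeR adjusted p = 0.159), both with groups apart. Among 15 elongation and termination factors 5 (33.3%) were lower and 1 higher, with a median of -0.27. The termination factor gene Etf1 had -0.81 and Eef1e1 -0.68, whereas Eef2k, the gene of the kinase that inhibits elongation factor eEF2, had 0.56.
Of the 14 genes through which mTOR and the MNK kinases act on the eIF4 group, 0 were lower and 1 was higher, counts that at this list size lie near the shares of all genes, and the median log2 fold change was 0.01. Mknk2, the gene of a kinase of eIF4E, was the higher one at 0.68 (standard error 0.19, edgeR adjusted p = 0.171), with 23.8, 27.2 and 24.0 CPM after PRATA and 18.7, 14.0 and 14.0 CPM after sham. Deptor, an inhibitor of mTOR, had 0.35 (standard error 0.16) and did not pass the test. Of 18 genes of the integrated stress response, 4 (22.2%) were lower and 1 higher, with a median of -0.29. This list holds genes of the program that follows phosphorylation of eIF2 and also regulators of that phosphorylation. Slc7a11, a cystine transporter gene, had -1.46 and Psat1, of serine synthesis, -1.17. The other lower genes were regulators, Gcn1 (-0.47) and Dnajc3 (-1.40, with overlapping groups). Atf3 was the higher one at 1.43 (standard error 0.44, edgeR adjusted p = 0.182). It was at 278, 327 and 108 CPM after PRATA and 125, 82.7 and 56.5 CPM after sham. The groups overlapped, with PRATA replicate 3 within the sham range. The central transcription factor gene Atf4 had -0.17 (standard error 0.31), also with overlapping groups. Phosphorylation of eIF2 or of the binding proteins was not measured.

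How many initiation factor genes were called depended on the libraries and on the tool. Leaving out 1 sample changed the 22 lower genes to 10 without sham replicate 3 (19.2%, with 5.57% of all genes), 13 without PRATA replicate 1, 14 without PRATA replicate 2, 14 without PRATA replicate 3, 19 without sham replicate 1 and 28 without sham replicate 2 (53.8%, with 14.1% of all genes). In the 4 samples that shared a 7SL copy, 11 were lower (21.2%, with 6.90% of all genes). Among genes with at least 10 counts in every sample, which leaves out low genes, 23 of the 52 (44.2%) and 11.4% of all genes were lower. The share was above that of all genes under each of the 15 alternatives. Eif2s1, Eif2b3, Eif3d, Eif3el1, Eif3j, Eif3m, Eif4a1 and Eif5b, 8 genes in all, were lower at an unadjusted p under 0.05 under each of them. The share of all genes lower under each was not computed, so this count has no background. The alternatives reuse the same samples and are not independent.
At an adjusted p under 0.05, DESeq2 called Eif2b3, Eif2s1, Eif3d, Eif3el1, Eif4a1 and Eif5b lower, 6 of 52 genes against 3.36% of all genes tested. Voom with sample quality weights called these 6 and Eif2b1, Eif3j and Eif4ebp1, 9 of 52 genes against 4.87% of all genes, and edgeR without sham replicate 2 called 7, against 3.62% of all genes.

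**Figure D5:**
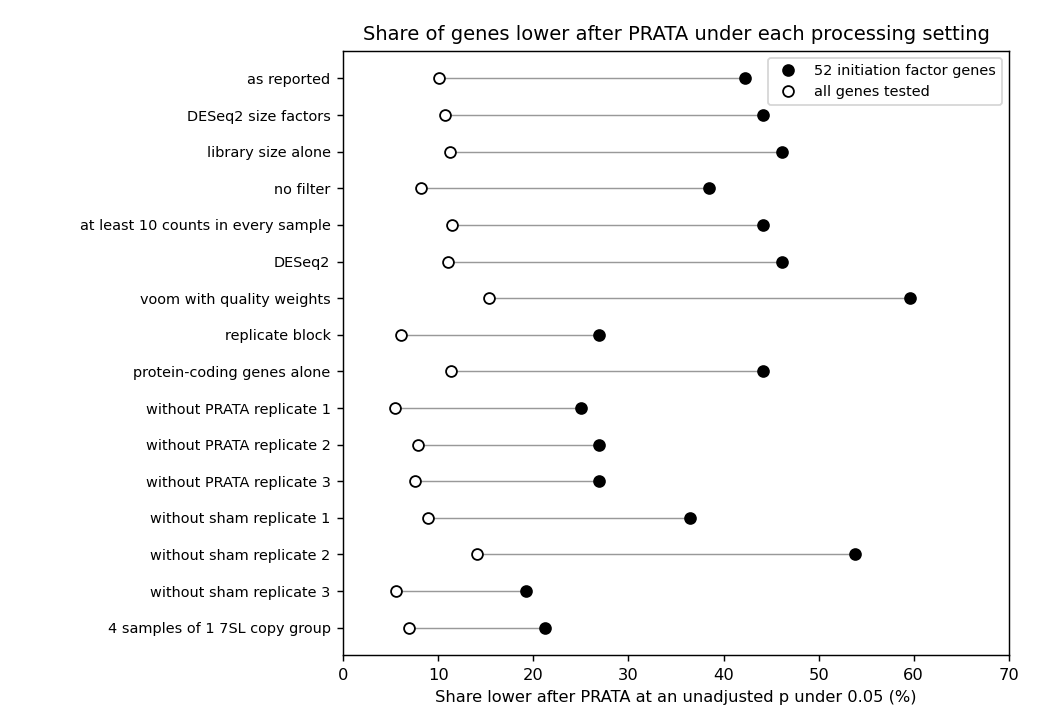
Percentage of the 52 initiation factor genes (filled) and of all genes tested (open) that were lower after PRATA at an unadjusted p under 0.05, for the fit as reported and each of 15 alternatives. The filled points run from 19.2% to 59.6% and the open points from 5.44% to 15.3%.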

How the data were processed

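RNA of neurons from L1-L2 DRGs was sequenced as ribosome-depleted, stranded, paired-end libraries (3 PRATA, 3 sham). The deposited table holds raw counts of reads per gene, made by the authors without normalization. The submitters' processing notes name STAR 2.7.3a, RSEM and DESeq2 without their roles, whereas the study's methods describe HISAT2, StringTie and Cuffdiff, so which tool made the counts is not known and whole numbers could be rounded estimates. The genome build, annotation, strand setting and treatment of reads with several matches are not given in the sources used here.

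By replicate number, depth was 8129162, 12209863 and 12892124 counts for PRATA and 15226952, 5892967 and 10693367 counts for sham. At these depths 3 counts, taken as the floor, equal 0.197 to 0.509 CPM, which covers counting error only because the reads carry no molecular identifiers.

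The analysis used edgeR 4.0.16 under R 4.3.3. Genes were kept by filterByExpr (minimum count 10, minimum total 15), scaled by TMM (factors 0.953 to 1.1) and compared by the two-sided quasi-likelihood test without a covariate, with Benjamini-Hochberg adjustment over the 14919 genes tested. A gene was called at an unadjusted p under 0.05, and the share of all genes tested that was called serves as the background. Standard errors were the fold change divided by the root of the F statistic. CPM values are TMM-normalized. The scripts were tested on simulated data.

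The members, gene lists and tests were chosen with earlier results of these data known. Named were every eIF2 kinase, in each complex the gene with the smallest p and that with the largest absolute log2 fold change, every gene called, both genes of each paralog pair, and from each list the 2 genes with the smallest p (for cell markers, those called). Other genes named, the interferon list and the promoter motifs were chosen after their values were seen. As alternatives, the filter was dropped or raised to 10 counts in every sample, the scaling was changed to library size or to the size factors of DESeq2, the test was changed to DESeq2 1.42.0 or to voom of limma 3.58.1 with quality weights per sample, a replicate block was added, and the fit was limited to protein-coding genes, to 5 samples by leaving out each in turn, and to the 4 samples that shared a 7SL copy. Symbols of all 52 genes matched RefSeq, whose coordinates were used for the promoter windows and for the overlaps between genes. Plots were made in matplotlib 3.10.9 under Python 3.11.15.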

Additional observations from a re-analysis of the deposited data

How the results depend on the processing

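The 22 initiation factor genes lower after PRATA at an unadjusted p under 0.05 became 14 with the replicate block (26.9%, beside 6.08% of all genes), 11 in the 4 samples that shared a 7SL copy, and 10 to 28 with 1 sample left out. The 1 higher gene became 0 with the replicate block and 0 to 1 with 1 sample left out. At an adjusted p under 0.05 the 0 lower genes became 6 with DESeq2, 9 with voom and sample quality weights, and 0 to 7 with 1 sample left out. The cause was not tested. Over the alternatives the median log2 fold change of the 52 genes lay between -0.44 and -0.31. Of 345 values of the 23 called genes under the alternatives, 278 stayed under an unadjusted p of 0.05, 67 did not, and 0 changed sign. The replicate numbers shared by the groups did not pair the samples: deviations from the group means correlated at -0.355, -0.0511 and -0.349 for the 3 numbers, across genes, which are not independent replicates.

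Of the genes not called, 23 of 435 values came under an unadjusted p of 0.05 in the same direction, and 39, from 12 genes, changed sign. With 1 sample left out, the log2 fold change lay between -0.34 and 0.03 for Eif2ak3, -0.15 and 0.12 for Eif2b2, -0.12 and 0.15 for Eif2b4, -0.17 and 0.14 for Eif2b5, -0.18 and 0.01 for Eif3f, -0.12 and 0.36 for Eif4e3, -0.10 and 0.17 for Eif4enif1, -0.06 and 0.07 for Eif4g3, and -0.05 and 0.32 for Eif5a2. In the 4 samples that shared a 7SL copy it changed sign to -0.04 for Eif1b, 0.02 for Eif2ak4, -0.20 for Eif2b2, -0.24 for Eif2b4, -0.21 for Eif2b5, 0.05 for Eif5 and -0.16 for Eif5a2. Changes of scaling, filter or tool alone turned the sign only for Eif2b2 (0.00 after rounding, and -0.09 with voom), Eif2b4 (-0.01), Eif2b5 (-0.01, -0.02 and -0.04) and Eif4g3 (-0.01, -0.02 and -0.03). Depth limits the genes at the lowest levels most, Eif4ebp1 and Eif4ebp2 among them, and sham replicate 2 is the shallowest library.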

Other observations

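Other interferon-stimulated genes showed the same pattern of samples as the kinase gene Eif2ak2. In a list of 18 such genes, written after the values of Eif2ak2 had been seen, 17 were tested, 8 were higher after PRATA at an unadjusted p under 0.05 and 0 were lower, beside 8.19% and 10.1% of all genes, with a median log2 fold change of 0.94. The sum of their CPM values reached 1768 in PRATA replicate 1 and 1611 in PRATA replicate 2 but 550 in PRATA replicate 3, against 698, 558 and 708 CPM in sham replicates 1, 2 and 3. Ifit1, an antiviral RNA-binding protein gene, was at 132, 99.8 and 19.1 CPM after PRATA and 28.7, 13.4 and 22.9 CPM after sham. Irf7, a transcription factor gene of this response, was at 35.9, 42.1 and 10.1 CPM against 10.4, 7.65 and 11.5 CPM. PRATA replicate 3 thus lay within or near the sham range for both genes, and of the 17 genes Stat2 alone had groups that did not overlap (64.6 to 93.6 against 45.9 to 58.9 CPM). Because the list was chosen on these samples, its count is not independent of Eif2ak2.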
